A study of Mus musculus with 4 samples.

Results

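Transcripts of 6 genes of the interleukin 1 (IL-1) family and its receptors were located cell by cell in mouse skin and buccal mucosa with Xenium in situ, an imaging assay that decodes single RNA molecules in tissue sections and assigns each to a cell. The genes were the ligands *Il1b* and *Il1f8*, the receptor antagonist *Il1rn*, the receptor *Il1r1*, the accessory receptor *Il1rap* and the IL-18 receptor chain *Il18r1*, 6 named members among the 328 genes of the panel, which also holds the related ligand *Il1f6*, read here for comparison. All 6 were detected on each of the 4 slides, which together held 17 sections. The mice carried Tet-On transgenes, TRE-*Pitx1* and *Krt5*-rtTA, in which doxycycline switches on the transcription factor PITX1 in cells that use the *Krt5* promoter, that is, basal keratinocytes. PITX1+ mice received doxycycline and Control littermates did not, so that PITX1 and the drug cannot be told apart. Control skin was dorsal, unwounded skin (3 sections, 1 male and 2 female), and PITX1+ skin was the same site (4 sections, 2 male and 2 female). Buccal mucosa was unwounded lining of the cheek from Control mice of both sexes (7 sections). Wounds were male dorsal skin on day 4 after wounding (1 Control and 2 PITX1+ sections). Control or PITX1+ was assigned to a section by its position on the slide. The study's legend counts the unwounded PITX1+ sections as mice and gives the Control and buccal ones as tissues without saying whether each is a separate animal, so that p-values measure the spread between sections, part of which may be technical.

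IL-1β, the product of *Il1b*, is a pro-inflammatory cytokine released chiefly by activated myeloid cells. It binds IL1R1, which then pairs with the accessory protein IL1RAP to signal to NF-κB and mitogen-activated kinases, and the antagonist encoded by *Il1rn* occupies IL1R1 without recruiting the accessory protein. *Il1f8* encodes IL-36β, a relative made mainly by epithelia, whose own receptor also pairs with IL1RAP, and *Il18r1* encodes the ligand-binding chain of the IL-18 receptor. In skin these signals are known for recruiting neutrophils and for inducing cytokines and matrix enzymes in fibroblasts and keratinocytes.

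The promoter windows of both ligands and the antagonist are printed because these 3 genes showed the largest differences between tissues or on wounding among the 6 members. Each window covers the 250 bases before a RefSeq start (build GRCm38.p6), and capitals mark letters that match a searched motif on either strand. The *Il1b* window lies on the minus strand at chr2:129371140-129371389, the window of the first of 3 listed *Il1rn* starts on the plus strand at chr2:24336610-24336859 and the *Il1f8* window on the plus strand at chr2:24152922-24153171.
Il1b: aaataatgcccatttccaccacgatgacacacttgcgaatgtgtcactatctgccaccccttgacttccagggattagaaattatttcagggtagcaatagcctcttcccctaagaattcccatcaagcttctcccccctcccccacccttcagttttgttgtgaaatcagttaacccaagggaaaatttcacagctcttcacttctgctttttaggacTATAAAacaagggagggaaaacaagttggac
Il1rn: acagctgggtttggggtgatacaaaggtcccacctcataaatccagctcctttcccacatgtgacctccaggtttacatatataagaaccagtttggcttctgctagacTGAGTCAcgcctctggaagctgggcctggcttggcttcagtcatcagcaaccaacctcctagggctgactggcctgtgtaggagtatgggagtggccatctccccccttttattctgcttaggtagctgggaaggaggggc
Il1f8: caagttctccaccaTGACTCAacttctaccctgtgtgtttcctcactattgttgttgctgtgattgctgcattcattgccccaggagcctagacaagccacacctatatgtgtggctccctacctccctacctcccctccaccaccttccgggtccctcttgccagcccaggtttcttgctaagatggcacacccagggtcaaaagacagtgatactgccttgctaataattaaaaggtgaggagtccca
The capitals in *Il1b* are a TATA box match (TATAAA) that begins 31 bases before the start. Those in *Il1rn* and *Il1f8* match AP-1 (TGANTCA), at 141 and 236 bases before the start. Among 32851 mouse promoter windows of this length, 12.4% held the TATA box letters and 6.75% the AP-1 letters. The NF-kB motif, held by 0.356% of windows, and the STAT letters (TTCNNNGAA), held by 7.02%, were in none of the 3 windows printed. These matches describe the letters only.

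Sections held 136365 to 5581930 transcripts, with 474847 to 749248 in Control skin and 2832562 to 5581930 in PITX1+ skin. Cells were grouped by their expression without the 6 members, and the groups carry the ending -like because they were named from markers. Levels are given as CPM, a gene's transcripts in 1e6 transcripts of all panel genes in the same cells. *Pitx1*, the induced gene, was counted at 12.6 CPM in the male Control section and at 722 and 436 CPM in the male PITX1+ sections. In females it stood at 74.7 and 54.1 CPM in Control and at 53.6 and 63.2 CPM in PITX1+ sections, so the check did not separate the female sections, and every direction below that rests on them carries this limit. It reached 44.0 to 1473 CPM in buccal mucosa, 62.9 CPM in the Control wound and 339 and 135 CPM in the PITX1+ wounds. Buccal section 3 held 2 keratinocyte-like cells, and buccal values of those cells cover the other 6 sections. CPM compares one gene between cells, and levels of different genes are not compared because their probe sets differ.

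*Il1b* transcripts lay mostly in keratinocyte-like cells in Control skin and mostly in immune-like cells in wounds. Keratinocyte-like cells held 57.1% of its transcripts in Control skin (mean of 3 sections), 39.0% in PITX1+ skin and 20% to 96.0% in the buccal sections, which had 10 to 150 *Il1b* transcripts each. In the Control wound they held 3.21%, and in the PITX1+ wounds 13.5%. Immune-like cells held 18.8% in Control skin, 39.6% in PITX1+ skin and 8.81% in buccal mucosa, against 91.0% in the Control wound and 75.2% in the PITX1+ wounds. The wounds therefore stood outside the range of the unwounded skin sections, whose immune-like share ran from 11.8% to 53.8%. In PITX1+ skin the leading class differed by slide, which the means do not show. Male sections had 972 and 275 *Il1b* transcripts in keratinocyte-like and 326 and 220 in immune-like cells. Female sections had 448 and 291 in keratinocyte-like and 1074 and 532 in immune-like cells.

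**Figure D1:**
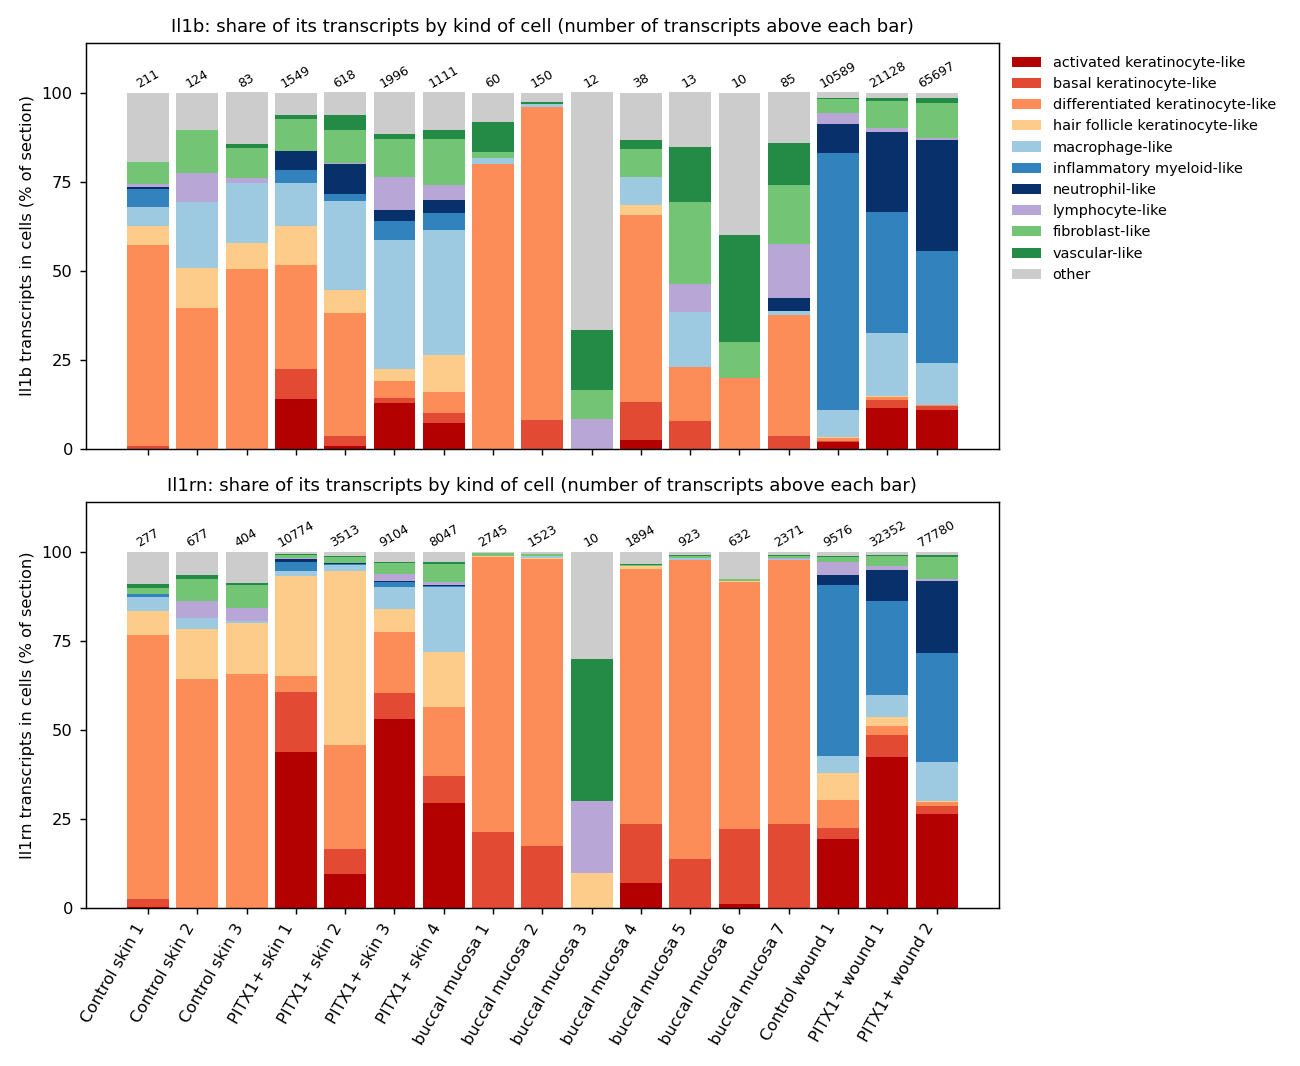
Share of all *Il1b* (top) and *Il1rn* (bottom) transcripts in cells, in percent, by kind of cell in each of the 17 sections, with the number of transcripts above each bar. Blue shades (macrophage-, inflammatory myeloid- and neutrophil-like cells) fill most of the *Il1b* bars of the 3 wounds, whereas red and orange shades (keratinocyte-like cells) fill most of the *Il1rn* bars of unwounded skin and of 6 of the 7 buccal sections.

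Within immune-like cells the highest *Il1b* levels lay in 2 kinds. Neutrophil-like cells, led by markers of the granulocytes that enter wounds first, held 29487 ± 10222 CPM in PITX1+ skin (SD, 3 sections with at least 50 such cells), 59020 CPM in the Control wound and 45328 ± 9985 CPM in the PITX1+ wounds (n = 2). Inflammatory myeloid-like cells, which carry *Ccl3*, *Ccl4* and *Arg1*, held 29271 ± 12938, 73598 and 46577 ± 2465 CPM in the same groups. Control skin had fewer than 50 cells of either kind in each section and gave no level. Of all *Il1b* transcripts, neutrophil-like, inflammatory myeloid-like and macrophage-like cells held 5.04%, 3.91% and 27.1% in PITX1+ skin. These shares were 8.01%, 72.2% and 7.67% in the Control wound and 27.0%, 32.6% and 14.8% in the PITX1+ wounds. Macrophage-like cells were present in every section and held 419 ± 214 CPM in Control skin (n = 3), 1291 ± 840 in PITX1+ skin (n = 4) and 55.5 ± 61.2 in buccal mucosa (n = 7). Their level was 3321 CPM in the Control wound and 8092 ± 752 in the PITX1+ wounds, above every unwounded section. In keratinocyte-like cells *Il1b* rested on the differentiated kind in Control skin, with 1398, 183 and 223 CPM in the 3 sections, so that the male section stood apart. PITX1+ skin showed the same split, with 2497 and 690 CPM in males and 110 and 86.0 CPM in females. Control codes, which match no gene, ran in the same direction in these cells, at 2220, 1038 and 1108 in 1e6 transcripts over all codes together in Control and at 1681, 1059, 410 and 196 in PITX1+ skin, and their part in the split was not tested. Outside cells lay 10.6% of the *Il1b* transcripts of the buccal slide, which had only 423 of them in all, against 0.733% to 2.09% on the other slides.

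*Il1rn*, the antagonist, was a keratinocyte transcript in resting tissue and stayed one in part in wounds. Keratinocyte-like cells held 80.5% of it in Control skin, 86.0% in PITX1+ skin and 91.8% to 98.7% in the buccal sections, and 37.9% and 41.8% in Control and PITX1+ wounds, where immune-like cells held 59.2% and 52.3%. Activated keratinocyte-like cells, the *Krt6a* and *Krt16* kind known from wounded and hyperproliferative epidermis, held 9122 ± 5912 CPM in PITX1+ skin (n = 4), 8104 in the Control wound and 18395 ± 285 in the PITX1+ wounds (n = 2). Control skin had 4, 1 and 0 such cells. Differentiated keratinocyte-like cells held 1814 ± 526, 2431 ± 656 and 1941 ± 559 CPM in Control skin, PITX1+ skin and buccal mucosa, which overlapped. The same myeloid kinds that held *Il1b* also held *Il1rn*: inflammatory myeloid-like cells reached 47243 ± 34053 CPM in PITX1+ skin, 44286 in the Control wound and 54627 ± 4030 in the PITX1+ wounds. Among *Il1b*-positive immune-like cells of the wounds, 52.9% in the Control section and 47.5% and 66.3% in the PITX1+ sections also held *Il1rn*. Among *Il1b*-negative ones the share was 19.2% in the Control wound and 23.6% to 35.2% in the PITX1+ wounds. In Control skin 0% to 10.5% of the *Il1b*-positive immune-like cells held both, a share resting on 14 to 30 *Il1b*-positive cells per section. The part of differences in depth between cells in these shares was not tested.

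**Figure D2:**
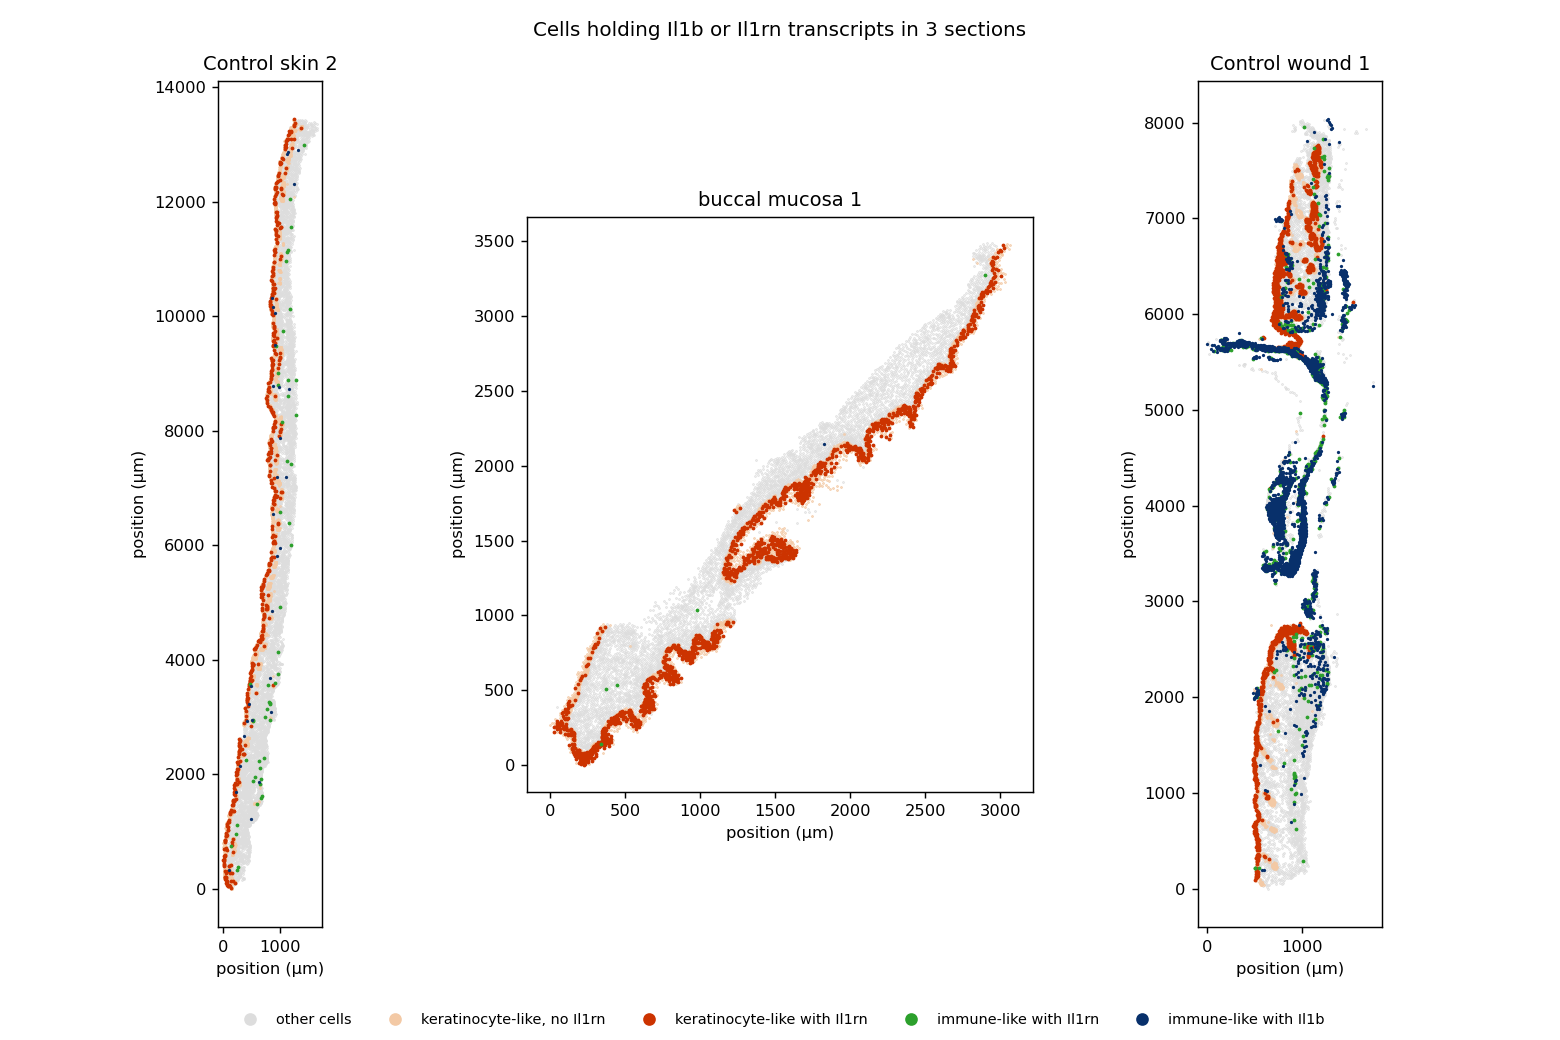
Positions of cells in µm in 3 sections (Control skin 2, buccal mucosa 1, Control wound 1), coloured by whether a keratinocyte-like or immune-like cell held at least 1 *Il1rn* or *Il1b* transcript, with *Il1b* drawn last. *Il1rn*-positive keratinocyte-like cells (481, 1442 and 1565 in the 3 sections) trace the epithelium, and *Il1b*-positive immune-like cells number 30 and 1 in the first and second section and 3703 in the wound, where they fill the gap between the epithelial edges and line the tissue beside it.

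The number of *Il1rn* transcripts for each *Il1b* transcript, counted over all cells, was 1.31, 5.46 and 4.87 in the Control skin sections and 6.96, 5.68, 4.56 and 7.24 in PITX1+ skin. It was 0.904 in the Control wound and 1.53 and 1.18 in the PITX1+ wounds, below all unwounded skin sections but the male Control one. The buccal sections had 45.8, 10.2, 0.833, 49.8, 71.0, 63.2 and 27.9, of which section 3, with 10 *Il1rn* and 12 *Il1b* transcripts, lay below every wound and the others above every skin section. The ratio compares counts of different probe sets and was not tested.

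*Il1f8* transcripts lay mostly in keratinocyte-like cells in all groups. Keratinocyte-like cells held 68.9% of its transcripts in Control skin, 77.9% in PITX1+ skin, 98.7% to 99.7% in the buccal sections, 92.0% in the Control wound and 89.8% in the PITX1+ wounds. Differentiated keratinocyte-like cells held 417 ± 191 CPM in Control skin (n = 3), 1204 ± 493 in PITX1+ skin (n = 4), 6376 ± 1231 in buccal mucosa (n = 6), 10535 in the Control wound and 7895 ± 197 in the PITX1+ wounds. Basal keratinocyte-like cells held 143 ± 54.9 CPM in PITX1+ skin and 60.1 ± 39.2 in buccal mucosa. Sebaceous-like cells of the skin held 454 ± 275 and 1367 ± 1009 CPM in Control and PITX1+ skin.

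The receptor *Il1r1* had its highest levels in stromal cells and, in PITX1+ skin, also in lymphocyte-like cells. Fibroblast-like cells held 5019 ± 2950 CPM in Control skin, 6276 ± 2502 in PITX1+ skin, 2369 ± 611 in buccal mucosa, 4643 in the Control wound and 7118 ± 815 in the PITX1+ wounds. Vascular-like cells held 5586 ± 1645, 7311 ± 3145, 1961 ± 619, 5719 and 5963 ± 80.6 CPM in the same order. Lymphocyte-like cells held 7349 ± 1668 CPM in PITX1+ skin (n = 3), whereas inflammatory myeloid-like cells of the wounds held 376 CPM in the Control section and 414 ± 174 CPM in the PITX1+ sections.

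*Il1rap*, the partner chain, was found in epithelium and stroma alike, with 1089 ± 262 CPM in fibroblast-like, 1106 ± 221 in keratinocyte-like and 1805 ± 490 in neural-like cells of Control skin (n = 3 each). Its highest levels were in neutrophil-like cells, with 10322 ± 4679 CPM in PITX1+ skin (n = 3), 11553 in the Control wound and 7014 ± 174 in the PITX1+ wounds. *Il18r1* was highest in lymphocyte-like cells, with 3343 ± 578 CPM in Control skin (n = 2), 5466 ± 1331 in PITX1+ skin (n = 3), 4064 in the Control wound and 4622 ± 162 in the PITX1+ wounds. Differentiated keratinocyte-like cells of Control skin came next at 3138 ± 555 CPM, against 159 ± 105 CPM in buccal mucosa. Over all control codes together, lymphocyte-like cells held 3284 and 4807 in 1e6 transcripts in Control skin, 2140 to 2756 in PITX1+ skin, 625 in the Control wound and 917 and 975 in the PITX1+ wounds. Their part in the *Il1r1* and *Il18r1* levels of these cells was not tested.

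**Figure D3:**
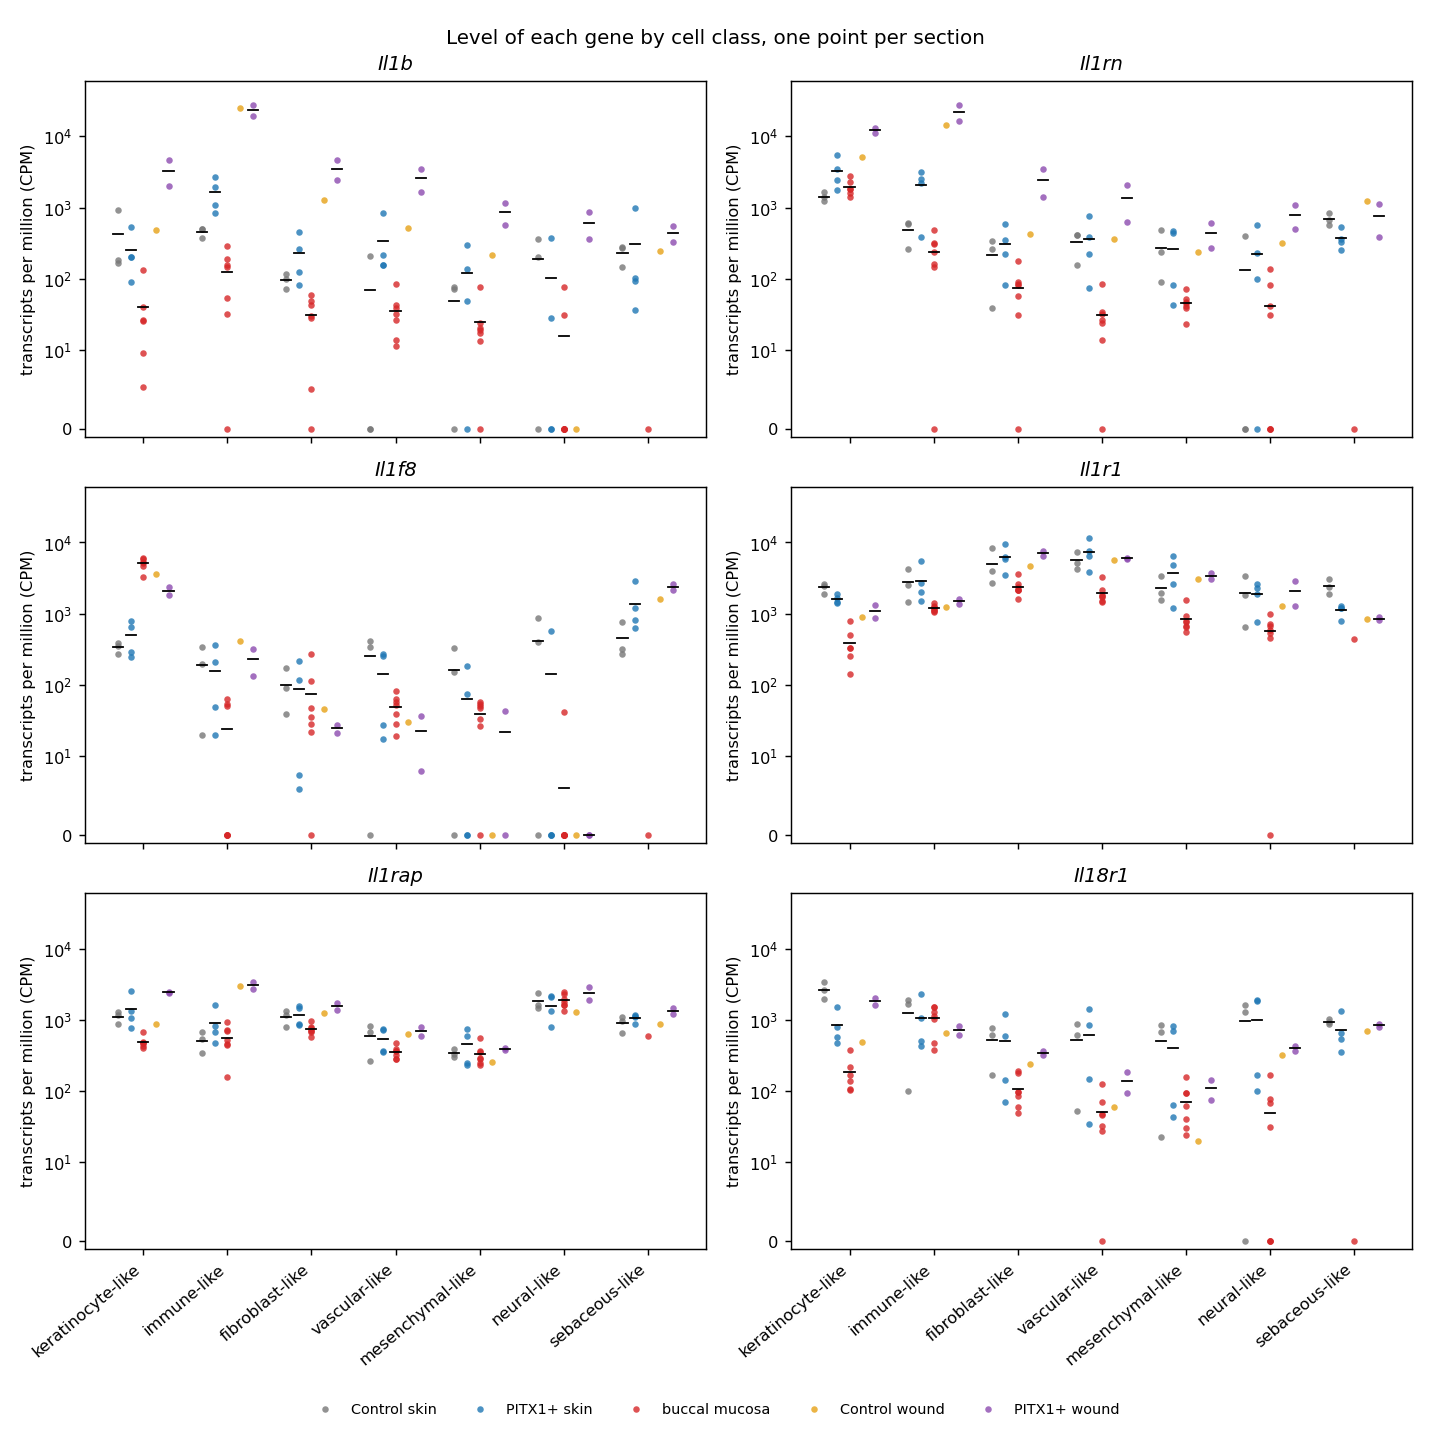
Level of each of the 6 genes in CPM (symmetric log axis, linear below 10) by cell class, with a point for each section holding at least 50 such cells, coloured by group, and a bar at the mean of groups with more than 1 section. Wound points lie highest for *Il1b* in the immune-like class, and the buccal mean is the highest for *Il1f8* in the keratinocyte-like class and the lowest for *Il1r1* in the 4 tested classes (keratinocyte-, immune-, fibroblast- and vascular-like).

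The classes were put in order of their mean level for each gene. In unwounded skin immune-like cells led for *Il1b* and keratinocyte-like cells came next, a difference seen in 6 of 7 sections (1.81 ± 1.50 on the log2 scale with 10 CPM added, exact sign-flip permutation test, two-sided, p = 0.0312, adjusted p = 0.172). For *Il1rn* the order of these classes was the opposite, again in 6 of 7 sections (1.20 ± 1.11, exact p = 0.0312, adjusted p = 0.172). None of the 66 pairs of neighbouring classes passed the threshold after adjustment over the family. With 7 sections the exact p cannot fall under 0.0156, so that a family of this size could hardly pass, and whether neighbours differ is not resolved by it.

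The first comparison asked whether the family differed between PITX1+ and Control skin in keratinocyte-like, immune-like, fibroblast-like and vascular-like cells, with slide, which is also sex, as a covariate. Of 24 pairs of gene and class, 22 could be tested and 1 was called by edgeR at an adjusted p under 0.05. Over all genes in the 4 classes 11.6% of the tests were called. *Il18r1* in keratinocyte-like cells stood at 1935, 2650 and 3386 CPM in Control and at 573, 467, 1522 and 794 CPM in PITX1+ skin. The groups did not overlap, and the male slide showed the lowest values in both. The gene fell by 1.55 on the log2 scale (SE 0.37, edgeR adjusted p = 0.0215), in a class where 33.2% of all genes were called. The call was lost without Control skin 1 (−1.07), Control skin 3 (−1.58) or PITX1+ skin 4 (−1.40), without the slide covariate (−1.53, edgeR adjusted p = 0.0919), and in differentiated keratinocyte-like cells alone (−0.80), where 7.48% of genes were called. The makeup of the class differed between the groups. Differentiated cells, which held the highest *Il18r1* level among its kinds in Control skin, were 1973 of 3999, 3185 of 6283 and 2379 of 4829 keratinocyte-like cells in Control and 2816 of 21135, 2896 of 12105, 6035 of 22196 and 4623 of 32397 in PITX1+ skin. In hair follicle keratinocyte-like cells alone, where 36.3% of genes were called, the *Il18r1* difference was −1.33 (edgeR adjusted p = 0.0384). Lists of dendritic or Langerhans cell and T or NK cell markers summed to 3757 to 6677 and 1340 to 3872 CPM in keratinocyte-like cells of Control skin and to 739 to 2112 and 324 to 2278 CPM in those of PITX1+ skin. Every marker of both lists was detected in all of these sections, and their part in the result was not tested. Control codes in differentiated cells, given above, were also lower in PITX1+ than in Control sections of the same slide. The part of these codes was not tested either.

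*Il1b* in immune-like cells and *Il1rn* in immune-like and keratinocyte-like cells missed the threshold in this comparison with edgeR and passed it with DESeq2 (adjusted p = 0.00325, 0.00533 and 0.0233), which called 8.16% of genes in immune-like and 50% in keratinocyte-like cells. *Il1b* in immune-like cells was 498, 377 and 496 CPM in Control and 1968, 1086, 2722 and 847 CPM in PITX1+ skin, without overlap (log2 fold change 1.82 ± 0.39 SE, edgeR adjusted p = 0.0507, background of genes called 0.306%). *Il1rn* in immune-like cells was 259, 606 and 596 CPM in Control and 3157, 390, 2232 and 2523 CPM in PITX1+ skin, where the second male section fell among the Controls (2.32 ± 0.60, edgeR adjusted p = 0.0892). *Il1rn* in keratinocyte-like cells was 1638, 1408 and 1223 CPM in Control and 5507, 2444, 3441 and 1776 CPM in PITX1+ skin, again without overlap (1.17 ± 0.39, edgeR adjusted p = 0.0573). The same shift in makeup stands beside it, with 4, 1 and 0 activated cells in Control and 2113, 255, 5076 and 4348 in PITX1+ skin. The difference was 1.07 in differentiated cells alone (edgeR adjusted p = 0.119) and 1.21 in hair follicle ones (edgeR adjusted p = 0.0326). In these fits 7.48% and 36.3% of genes were called. Beside the immune-like values stand the inflammatory myeloid markers, which summed to 5558 to 7553 CPM in Control and 11082 to 69611 CPM in PITX1+ immune-like cells. In fibroblast-like cells, where 9.76% of genes were called, and in vascular-like cells, where 0.769% were, no member passed. In macrophage-like cells alone none of the members was called, where 2 of 320 genes were.

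In the keratinocyte-like class as a whole, the *Il1f8* difference between PITX1+ and Control skin ran in opposite directions on the slides. In keratinocyte-like cells it was 383 CPM in the male Control section against 289 and 246 CPM in male PITX1+ sections, and 356 and 273 CPM in female Controls against 800 and 648 CPM in female PITX1+ sections. Male PITX1+ sections lay below their Control and female ones above theirs. As given above, differentiated cells were a smaller part of the class in PITX1+ skin. Among keratinocyte-like cells at least 30 µm from stroma, *Il1f8* stood at 556 CPM in the male Control and at 700 and 783 CPM in male PITX1+ sections. In females these cells held 460 and 318 CPM in Control and 1584 and 1226 CPM in PITX1+ sections. The part of makeup in the opposite directions was not tested. The difference of the PITX1+ effects, male minus female, was −2.37 ± 0.47 on the log2 scale (edgeR interaction, adjusted p = 0.0488), in a class where 4.27% of genes were called. The male slide has 1 Control section, whose spread is taken to be that of the other groups. No other pair was called in this comparison, and with library size in place of TMM scaling this one was not called either.

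The second comparison set buccal mucosa against Control skin, where tissue and slide cannot be told apart and the Control sections are those of the first comparison. Of 24 pairs 17 could be tested, and 9 were called, 2 higher and 7 lower in buccal mucosa. Of all genes tested, 70.1% were called in keratinocyte-like, 8.30% in immune-like, 32.8% in fibroblast-like and 25.1% in vascular-like cells. *Il1f8* in keratinocyte-like cells had 383, 356 and 273 CPM in Control skin, and 3309 at the lowest, 5247 at the median and 6056 at the highest in 6 buccal sections. The groups were far apart, with a log2 fold change of 5.23 ± 0.39 (SE, edgeR adjusted p = 8.09e-07), in a class where 70.1% of genes were called. The class held different kinds in the tissues, with 1818, 3087 and 2435 hair follicle and 204, 10 and 15 basal cells in the Control sections and fewer hair follicle than basal cells in each of the 6 buccal ones, with 489 to 2014 basal cells. In differentiated keratinocyte-like cells alone *Il1f8* (5.59), *Il1rn* (1.70), *Il1r1* (−1.13) and *Il18r1* (−2.55) were also called by edgeR. The CPM of *Il1rn* in this kind, given above, overlapped between the tissues, and the part of scaling in its call was not tested. The share of all genes called in this kind alone is not given here, and that of the whole class was 70.1%. The related *Il1f6*, which encodes IL-36α, rose likewise, by 6.44 ± 0.42 (edgeR adjusted p = 3.70e-07). Part of the size comes from scaling, since TMM moved the median of all genes from −1.67 to −0.34 in this class, and with library size alone *Il1f8* differed by 3.91 ± 0.30 (edgeR adjusted p = 3.27e-07). *Il1rn* in the same cells had 1223 to 1638 CPM in Control skin and 1388, 1816 and 2799 CPM as the lowest, median and highest in buccal mucosa, so the groups overlapped. The fit with TMM scaling called it higher (1.71 ± 0.27, edgeR adjusted p = 0.000206), but with library size alone the difference was 0.45 ± 0.27 (edgeR adjusted p = 0.143).

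Receptor transcripts were lower in buccal mucosa in every class tested for *Il1r1*. In fibroblast-like cells Control sections had 4004, 8342 and 2710 CPM and buccal sections 1590, 2173 and 3567 CPM as the lowest, median and highest, 1 buccal section lying within the Control range. The log2 fold change was −1.37 ± 0.28 (SE, edgeR adjusted p = 0.00328), in a class where 32.8% of genes were called. In vascular-like cells Control sections had 4200, 7404 and 5155 CPM and the buccal ones 1470 to 3270 CPM, without overlap (−1.12 ± 0.27, edgeR adjusted p = 0.0107, background 25.1%). In immune-like cells 1453, 4262 and 2515 CPM stood against 1068 to 1391 CPM, also without overlap (−1.24 ± 0.29, edgeR adjusted p = 0.0169, background 8.30%). In immune-like cells the call was lost without Control skin 2 (−0.97), without buccal section 2, 4 or 5 and with transcripts over the nucleus only (−1.15), and in vascular-like cells without Control skin 2 (−0.99). In keratinocyte-like cells 1900, 2629 and 2477 CPM stood against 141 to 777 CPM (−1.32 ± 0.37, edgeR adjusted p = 0.00793, and −2.61 with library size alone). *Il18r1* was lower as well, with 104 to 370 CPM in buccal keratinocyte-like cells against 1935 to 3386 CPM in Control skin (−2.47 ± 0.40, edgeR adjusted p = 0.000254, and −3.84 with library size alone) and a drop of 2.56 ± 0.46 in fibroblast-like cells (edgeR adjusted p = 0.00190). Control codes were lower in buccal mucosa too, at 119 to 193 in 1e6 transcripts against 1038 to 2220 in Control skin in differentiated keratinocyte-like cells and at 56.7 to 150 against 355 to 1364 in fibroblast-like cells, and their part in the lower *Il1r1* and *Il18r1* levels was not tested. *Il1rap* fell in fibroblast-like cells by 1.03 ± 0.30 (edgeR adjusted p = 0.025), a call lost without Control skin 1 (−0.58), Control skin 3 (−0.79) or buccal section 5 (−0.98), with library size alone (−0.57), without a gene filter (−0.85), with any quality score (−0.88) and with 60 clusters (−0.60). In keratinocyte-like cells *Il1rap* moved by 0.14 ± 0.21 with TMM and by −1.19, past the threshold, with library size alone, so its direction there is not settled. *Il1b* in keratinocyte-like cells had 936, 167 and 182 CPM in Control skin and 5.36, 25.5 and 133 CPM as the lowest, median and highest in buccal mucosa, without overlap. It missed the threshold (−2.17 ± 0.91, edgeR adjusted p = 0.0528), passed it with library size alone (−3.35, edgeR adjusted p = 0.00267), and differed by −0.41 without Control skin 1.

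**Figure D4:**
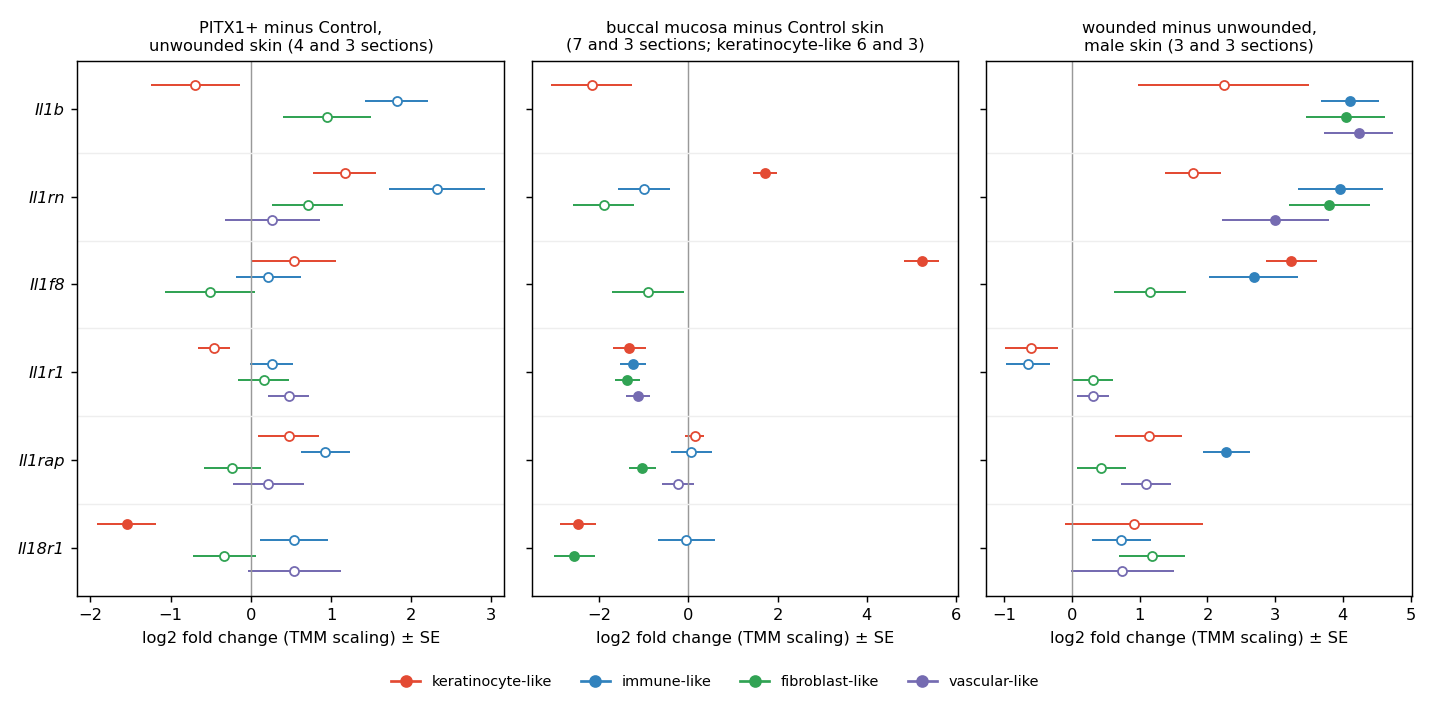
Log2 fold change with its SE for each gene (rows) and class (colours) in the 3 edgeR comparisons, filled where the adjusted p was under 0.05 (1, 9 and 9 points). *Il1f8* in keratinocyte-like cells lies farthest to the right in the buccal comparison, at 5.23, and *Il1b* and *Il1rn* in immune-like, fibroblast-like and vascular-like cells lie at 3.00 to 4.23 in the wound comparison.

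The third comparison set the 3 male wound sections against the 3 male unwounded sections, with condition as a covariate. Wounding and slide cannot be told apart, and the unwounded sections also served the first comparison. Of 24 pairs 23 could be tested and 9 were called, all higher in wounds. Of all genes tested, 2.14% were called in keratinocyte-like, 42.3% in immune-like, 40.4% in fibroblast-like and 30% in vascular-like cells. The count of called pairs ran from 8 (without PITX1+ skin 1) to 15 (without Control skin 1) when each section was left out. *Il1b* in immune-like cells had 498, 1968 and 1086 CPM in unwounded Control and PITX1+ skin and 24816, 19095 and 27740 CPM in the wounds. Every wound section was far above every unwounded one (log2 fold change 4.10 ± 0.43 SE, edgeR adjusted p = 5.77e-06), in a class where 42.3% of genes were called. *Il1rn* in these cells had 259, 3157 and 390 CPM against 14607, 16408 and 27251 CPM (3.96 ± 0.63, edgeR adjusted p = 0.000180). *Il1rap* rose with them, from 338, 664 and 469 to 3018, 2747 and 3419 CPM (2.28 ± 0.35, edgeR adjusted p = 0.000150). The makeup of the class moved too: 5 of 7 neutrophil and 6 of 8 inflammatory myeloid markers rose and 8 of 11 macrophage markers fell. In macrophage-like cells alone *Il1b* (3.12), *Il1rn* (3.34) and *Il1rap* (1.08) also rose on the log2 scale, by edgeR. The share of all genes called in this kind alone is not given here, and that of the whole class was 42.3%.

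*Il1b* and *Il1rn* also rose in stromal cells of the wounds. In fibroblast-like cells *Il1b* had 100, 260 and 82.1 CPM unwounded and 1263, 2407 and 4615 CPM wounded (4.04 ± 0.58, edgeR adjusted p = 0.00201, background 40.4%), and *Il1rn* 38.6, 220 and 82.1 against 429, 1404 and 3467 CPM (3.80 ± 0.60, edgeR adjusted p = 0.00271). In vascular-like cells *Il1b* rose from 0, 155 and 155 to 509, 1633 and 3506 CPM (4.23 ± 0.51, edgeR adjusted p = 0.00277, background 30%), and *Il1rn* by 3.00 ± 0.79 (edgeR adjusted p = 0.0262). The last of these had 156, 219 and 74.5 CPM unwounded and 359, 627 and 2096 CPM wounded, and its call was lost without PITX1+ skin 1 (3.38), PITX1+ skin 2 (2.30) or PITX1+ wound 2 (1.82). In all 4 pairs every wound section lay above every unwounded one. Neutrophil markers rose in the same cells: all 7 were called in fibroblast-like cells, where they summed to 710 to 1607 CPM in Control skin, 1063 to 3404 CPM in PITX1+ skin, 5088 CPM in the Control wound and 11252 to 17572 CPM in the PITX1+ wounds, and 5 of 6 tested were called in vascular-like cells. Their part in these results was not tested.

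In keratinocyte-like cells, where 2.14% of genes were called, *Il1f8* rose on wounding. It had 383, 289 and 246 CPM unwounded and 3626, 1806 and 2405 CPM in the wounds (3.24 ± 0.38, edgeR adjusted p = 0.00925). The Control wound was the highest. *Il1f6* rose as well (3.49 ± 0.52, edgeR adjusted p = 0.0243). In hair follicle keratinocyte-like cells alone the *Il1f8* difference was −0.01, and in differentiated ones 4.33. *Il1rn* stood at 1638, 5507 and 2444 CPM unwounded and at 5153, 11206 and 13291 CPM wounded, which overlapped and did not pass the threshold (1.79 ± 0.41, edgeR adjusted p = 0.0707). *Il1f8* was also called in immune-like cells (2.68 ± 0.66, edgeR adjusted p = 0.00487), at 412, 322 and 132 CPM in wounds against 19.9, 48.3 and 19.8 CPM unwounded, while 6 of 14 differentiated and 6 of 9 activated keratinocyte markers rose in those cells, against 42.3% of all genes called there in either direction, and their part in this was not tested. *Il1r1* passed the threshold in none of the 4 classes on wounding, with log2 fold changes between −0.65 and 0.31, although in differentiated keratinocyte-like cells alone it fell by 1.1 on the log2 scale (edgeR adjusted p = 0.0259). For this kind alone the share of all genes called is not given here, and that of the whole class was 2.14%.

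Control and PITX1+ wounds were compared by values only, with 1 Control section. *Il1rn* in keratinocyte-like cells was 5153 CPM in the Control and 11206 and 13291 CPM in PITX1+ sections, *Il1rap* 876 against 2478 and 2379 CPM, and *Il1b* 483 against 2017 and 4606 CPM. *Il1f8* went the other way, at 3626 against 1806 and 2405 CPM. The makeup of the class differed here too, with 2385 hair follicle and 956 activated cells among 4871 in the Control wound, 2714 and 4360 among 11504 in PITX1+ wound 1 and 1109 and 6638 among 12494 in PITX1+ wound 2, and its part in these values was not tested.

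A list of 12 genes that IL-1 is known to induce was read in the same fits. In wounds 9 of 12 rose in fibroblast-like cells, among them the neutrophil attractants *Cxcl1*, *Cxcl3* and *Cxcl5*, the granulocyte factor *Csf3* and the acute-phase gene *Saa3*, and none fell, with a list median of 3.04 on the log2 scale against 0.05 for all genes tested, of which 40.4% were called. All 7 neutrophil markers rose in the same cells, and their part in this count was not tested. In immune-like cells 8 of 12 rose (median 2.46 against 0.17, background 42.3%), in vascular-like cells 4 rose and 1 fell of 8 tested (background 30%), and in keratinocyte-like cells none of 12 was called (background 2.14%). In PITX1+ skin the list had 1 gene up in each of keratinocyte-like, immune-like and fibroblast-like cells, *Cebpb* in the first (background 33.2%) and *Saa3* in both others (0.306% and 9.76%), and none of 7 tested in vascular-like cells (0.769%). In buccal keratinocyte-like cells 6 of 11 tested were lower and *Cebpb* was higher, a share near the 70.1% of all genes called there.

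Levels of receptor and response genes were then read around the cells that held the ligand. *Il1b*-positive immune-like cells numbered 19, 30 and 14 in Control skin, 206, 126, 815 and 396 in PITX1+ skin, 0 to 14 in buccal sections and 3703, 6229 and 16713 in the wounds. Within 50 µm of such a cell lay 2.09% to 5.91% of fibroblast-like cells in Control skin, 12.2% to 29.8% in PITX1+ skin, and 52.3%, 80.2% and 89.4% in the wounds. In unwounded skin *Il1rap* in fibroblast-like cells was higher near than far in 7 of 7 sections, by 0.49 ± 0.43 on the log2 scale (SD, exact sign-flip permutation test, two-sided, p = 0.0156, the smallest possible, adjusted p = 0.109 over a family of 7). The Control sections differed by 0.94, 1.15 and 0.64 with 7, 13 and 4 *Il1rap* transcripts near, and the PITX1+ sections, with 73 to 297, by 0.09, 0.16, 0.12 and 0.33, so that the mean rests on the few Control transcripts. *Il1r1* there differed by −0.01 ± 0.56 (exact p = 0.969, and higher at 25 µm) and the response list by 0.42 ± 0.65 (exact p = 0.141). The PITX1+ sections differed by 0.09, 0.16, 0.56 and 0.71 for *Il1r1* and by 0.25, 0.45, 1.33 and 1.17 for the response list. The Control sections gave −0.89, −0.26 and −0.43 with 7, 55 and 4 near *Il1r1* transcripts. For the list they gave −0.23, 0.43 and −0.43 with 30, 64 and 18. *Il1rn* in keratinocyte-like cells was higher near in 5 of 7 sections (0.35 ± 0.76, exact p = 0.281). It differed by 0.78, 0.27, 1.54 and 0.66 in PITX1+ sections and by −0.91, −0.09 and 0.19 in Control ones. The latter held 2, 22 and 15 near *Il1rn* transcripts. *Il1b* in keratinocyte-like cells of the PITX1+ sections differed by 0.60, −0.01, 2.71 and 2.57. These differences between Control and PITX1+ sections were not tested. In the wounds *Il1rn* in keratinocyte-like cells averaged 13498 CPM near and 4696 CPM far and was higher near in 3 of 3 sections, as was *Il1r1* in fibroblast-like cells (0.50). *Il1b* in the same keratinocyte-like cells averaged 3740 CPM near and 436 CPM far, also higher near in 3 of 3 sections. The part of transcripts from neighbouring immune-like cells in these values was not tested. *Il1rap* in fibroblast-like cells of the wounds averaged 1444 CPM both near and far. *Il1b* itself, in fibroblast-like cells of the wounds, averaged 3296 CPM near and 325 CPM far, where near cells were chosen by the *Il1b* of their neighbours. Macrophage and neutrophil markers summed to 34771 CPM near and 23905 CPM far in the same fibroblast-like cells and were also higher near in 3 of 3 sections (0.55), and their part in these values was not tested.

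Keratinocyte-like cells were divided by distance from stroma, those called upper lying at least 30 µm and lower ones under 15 µm from the nearest stromal cell. In skin the division did not separate epidermis from hair follicles, so that upper cells may lie inside follicles. Hair follicle cells were 1818 of 3999 keratinocyte-like cells in Control skin 1 and 11951 of 21135 in PITX1+ skin 1. *Krt5*, a basal keratin used as the check, was lower in upper cells in every section of skin (mean −1.06 on the log2 scale), buccal mucosa (−3.74) and wounds (−1.55). It differed least in Control skin 2 and 3 (−0.54 and −0.65). *Il1f8* was higher in upper cells in 7 of 7 skin sections (2.91 ± 1.99) and in 6 of 6 buccal sections, where it averaged 8147 CPM in upper and 195 CPM in lower cells (5.59 ± 0.87). *Il1rn* CPM was higher in upper cells in 7 of 7 skin sections (1.30 ± 0.81) but in 2 of 6 buccal sections (−0.10 ± 0.46). In CPM both receptor chains ran the other way in buccal mucosa: *Il1r1* was lower in upper cells in 6 of 6 sections (−0.88 ± 0.79) and *Il1rap* likewise (−1.20 ± 0.22). Each of these member differences, apart from that of *Il1rn* in buccal mucosa, reached the smallest exact p its sections allow (0.0156 for 7 and 0.0312 for 6) and an adjusted p of 0.05 over a family of 8, which is at the threshold and not under it. CPM is a share of panel transcripts in the same cells. Counts per cell of *Il1r1*, *Il1rap* and *Il1rn* were mostly higher in upper buccal cells. In section 7, 1352 upper cells held 68 *Il1r1*, 219 *Il1rap* and 1196 *Il1rn* transcripts, and 1353 lower cells 35, 149 and 401. Section 5 went the other way for *Il1r1* (36 in 623 upper, 50 in 730 lower cells) and section 6 for *Il1rap* (42 in 475, 25 in 262). The part of total transcripts per cell was not tested. In skin *Il1r1* and *Il1rap* showed no common direction over all sections, being higher in upper cells in 3 and 4 of 7. For *Il1r1* the sign followed the slide, which is also sex. It differed by 0.34, 0.48 and 0.57 in male sections and by −0.06, −0.35, −1.49 and −0.88 in female ones. *Il1rap* differed by 1.33, 0.58 and 0.78 in male sections and by 0.55, −0.11, −0.72 and −0.33 in female ones. The part of slide or sex was not tested.

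**Figure D5:**
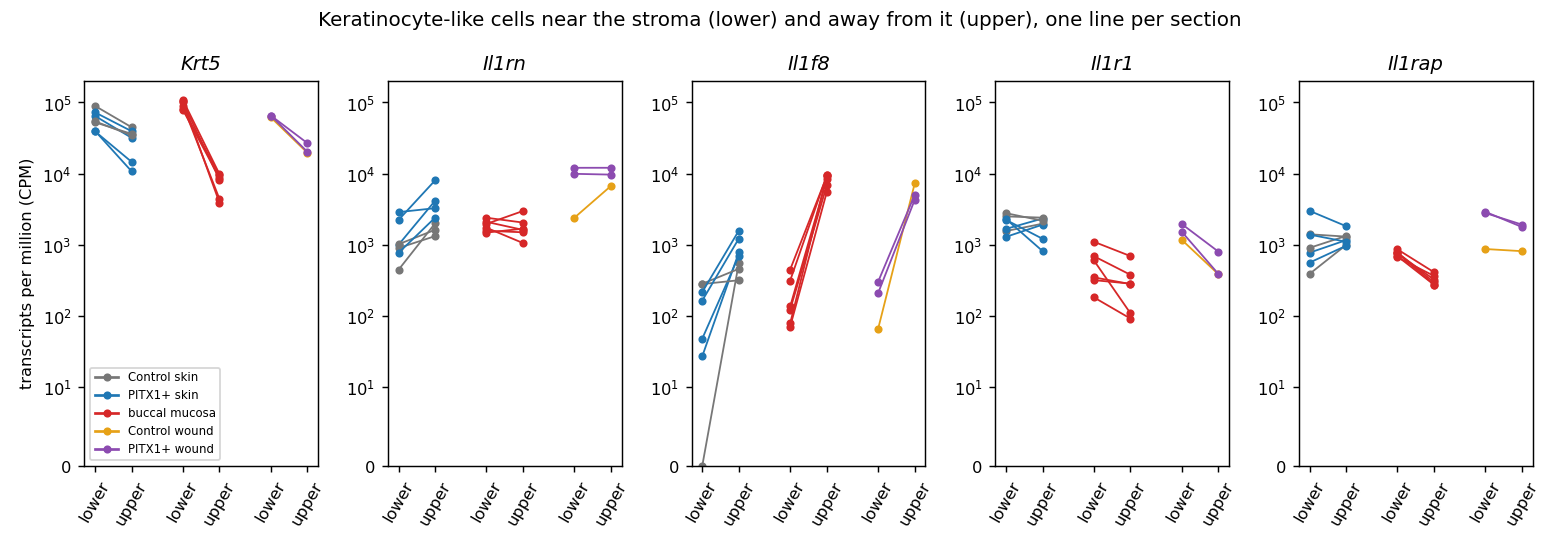
CPM (symmetric log axis, linear below 10) of *Krt5* and 4 members in lower and upper keratinocyte-like cells, a line for each section, grouped from left to right as unwounded skin, buccal mucosa and wounds. *Il1f8* rises in every section, from a mean of 195 to 8147 CPM in buccal mucosa, and *Il1r1* and *Il1rap* fall in all 6 buccal sections.

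Across 61 means of cell class and group, the panel gene most like *Il1b* was *Cxcr2* (Pearson r 0.93 on the log2 scale), a neutrophil chemokine receptor, followed by *S100a8* (0.87). *Il1rn* was most like *Junb* (0.84), *Il1f8* like *Il1f6* (0.78) and the cornified-envelope gene *Ivl* (0.74), *Il1r1* like *Ccn1* (0.67), *Il1rap* like *Mmp9* (0.71) and *Il18r1* like *Cxcl16* (0.73). These values are descriptions, since the points share sections and depth.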

How the data were processed

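Per the labels, 4 Xenium slides of formalin-fixed mouse tissue were imaged. The authors deposited for each slide the instrument's transcripts table, with a quality score for each transcript, and a cells table with counts of transcripts and control calls per cell, without normalization. Software versions and segmentation settings are not given in the sources used here. Only transcripts scoring 20 or more were kept for the sums per cell, and these counts equalled the deposited ones in 100% of cells. Sections were cells chained within 100 µm (200 µm on the slide with wounds), in groups of at least 2000, and the first section of each 3-section skin slide and the first 2 of the 4-section slide were taken as Control. Across slides 25 cell identifiers were shared by name, and cells were kept apart by slide.

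Cells with at least 10 transcripts were clustered by k-means (45 clusters, scikit-learn 1.9.0) without the members, *Il1f6* and the response list, and named from marker lists. No doublets were removed. Counts were summed per section and class (at least 50 cells) and tested by quasi-likelihood in edgeR 4.0.16 (R 4.3.3) after TMM scaling and filterByExpr, with Benjamini-Hochberg adjustment over the panel and a threshold of 0.05. Distances were tested with exact sign-flip tests over sections in scipy 1.17.1. Alternatives were library size, DESeq2 1.42.0, no gene filter, transcripts over the nucleus, any quality score, at least 20 transcripts per cell, 30 or 60 clusters, no slide covariate, other distances and pseudocounts (1 and 100 CPM), and each section left out. The members and lists were chosen with earlier results of these data known. The genes named are the 6 members, *Pitx1*, *Il1f6*, the response list and the panel genes most like each member, with a few markers named to describe a kind of cell or a check (*Ccl3*, *Ccl4*, *Arg1*, *Krt5*, *Krt6a*, *Krt16*).

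The fits were tested on simulated data at the same depths, in which 200 of the 237 to 328 genes of a fit were changed. There 4-fold changes were recovered at 71.1% (buccal, immune-like) to 97.6% (PITX1+, vascular-like). Recovery of 2-fold changes was 16% (wounded, keratinocyte-like) to 65.3% (wounded, vascular-like), so 2-fold differences were often missed. Some real fits called far fewer genes, such as 0.306% in immune-like cells of PITX1+ against Control skin. Recovery with few changed genes was not simulated. Transcripts of a section are not independent cells or animals, and counting error is wide where few transcripts were counted, above all for *Il1b* in Control skin and buccal mucosa.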

Additional observations from a re-analysis of the deposited data

Results flagged for a closer look

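In 48 groups of 4 to 10 sections, 7 held a section whose gap to the others passed Dixon's 95% limit, where chance gives about 1 in 20. *Il1b* in keratinocyte-like cells was 133 CPM in buccal section 2 against 5.36 to 39.9 CPM in the others. *Il1b* in vascular-like cells was 826 CPM (26 transcripts) in PITX1+ skin 3, against 155 to 218 CPM in the other PITX1+ sections, and 83.1 CPM (3 transcripts) in buccal section 6 against 11.5 to 42.3 CPM. Buccal section 3, which held almost no epithelium, was highest for *Il1rn* in vascular-like cells (84.7 CPM, 4 transcripts, against 0 to 34.6) and for *Il1f8* in fibroblast-like cells (270 CPM, 9 transcripts, against 0 to 113). Buccal section 6, which was rich in salivary-like cells, was highest for *Il1r1* in vascular-like cells (3270 CPM against 1470 to 2138) and for *Il1rap* in keratinocyte-like cells (666 CPM against 395 to 494).

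The PITX1+ minus Control difference of *Il1f8* in keratinocyte-like cells differed between the male and the female slide by −2.37 on the log2 scale (edgeR adjusted p = 0.0488). Makeup of that class differed between PITX1+ and Control skin, and its part in this was not tested. The response list in fibroblast-like cells was higher near *Il1b*-positive immune-like cells in all 3 wounds (mean 0.60 on the log2 scale) and lower near them in all 3 buccal sections with enough cells (−0.95), and the difference between these tissues was not tested. Macrophage and neutrophil markers in the same cells of the wounds moved by 0.55, also in 3 of 3 sections. The buccal value rests on 17, 3 and 31 near transcripts and became 0.13 at 100 µm.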

How the results depend on the processing

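Among pairs of gene and class called in the main or the alternative setting, 2 changed sign: *Il1rap* in buccal keratinocyte-like cells (−1.19 with library size alone) and *Il1f8* on wounding in hair follicle keratinocyte-like cells alone (−0.01, chosen after seeing the data). The 1 call of PITX1+ against Control became 5 with DESeq2, 2 with transcripts over the nucleus, 2 with any quality score, 0 without the slide covariate and 3 on the male slide alone, while 11.6% of all tests over the 4 classes became 22.3%, 10.5%, 15.4%, 2.65% and 9.39% (the last chosen after seeing the data, with 1 Control section assumed to vary like the others). Leaving out each section gave 0 (without PITX1+ skin 4) to 4 calls (without PITX1+ skin 2) there, 7 to 12 in the buccal and 8 to 15 in the wound comparison, where 15 came without Control skin 1. With library size alone the slide interaction had 0 calls. *Il1r1* near *Il1b*-positive cells moved to 0.37 at 25 µm in skin and 0.10 at 100 µm in buccal mucosa, where the response list moved to 0.13. With sections left out it ranged from −0.13 to 0.14 in skin, *Il1rap* from 0.38 to 0.56, the response list from 0.27 to 0.57 and *Il1rn* from 0.15 to 0.56. Upper minus lower ranged in skin from 1.16 to 1.48 (*Il1rn*), 2.42 to 3.37 (*Il1f8*), −0.33 to 0.02 (*Il1r1*) and 0.13 to 0.47 (*Il1rap*), and in buccal mucosa from −0.24 to 0.02, 5.37 to 5.85, −1.02 to −0.58 and −1.27 to −1.15. With a section left out 0 pairs of either family passed, which fewer sections make nearly certain and which says nothing of stability. Under all alternatives run for them, *Il1b*, *Il1rn* and *Il1rap* in immune-like cells of wounds and *Il1f8* in keratinocyte-like cells of buccal mucosa and, but for hair follicle cells alone, of wounds stayed past the threshold. No paired analysis was possible because section numbers follow position on a slide and pair no animals. Counting error was wide for *Il1b* in Control skin (83 to 211 transcripts per section) and buccal mucosa (10 to 150).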
